A study of Mus musculus with 6 samples.

Results

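Clone 11 of the mpkCCD cells, a mouse kidney cortical collecting duct line, was compared with the 4 other lines of the series that are labelled as expressing aquaporin 2 (AQP2). Samples were chosen by their labels alone. They were 5 of the 6 arrays of the series, 1 array of clone 11 and 1 array each of clones 3, 9 and 10 and of the original cells. Clone 2, which is labelled as lacking AQP2, was left out of the comparison and is cited only where its value bears on a gene. All lines had been kept in 0.1 nM dDAVP, a vasopressin analogue, for 5 days. Per the series' design text the clones are colonies raised from mpkCCDc14 cells. The original cells are described as such, although their title also calls them a clone, and they are taken here as the parent cells. Thus clone 11 stands for 1 colony, 1 culture and 1 array, and these cannot be told apart. The study sought transcripts whose level follows that of AQP2 among clones.

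AQP2 is the water channel of the principal cell, the collecting duct cell that reabsorbs water and sodium. Vasopressin binds its receptor on these cells, raises cyclic AMP and activates protein kinase A, which drives Aqp2 transcription and moves AQP2 vesicles to the apical membrane. The intercalated cell, the other main cell of the duct, moves acid, base and ammonia. Colonies of 1 immortalised line share their origin and can still differ in gene expression and in chromosome content.

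Values were MAS5 signals in arbitrary units, a per-probe-set summary of brightness that is noisy at low signal. The 5 arrays were alike in overall level, with medians from 84.7 in clone 11 to 88.8 in clone 10. The ratio of 3′ to 5′ signal of the actin control, a measure of RNA integrity, was 1.68 in clone 11 and 1.58 to 1.76 in the others. That of the Gapdh control was 0.887 in clone 11 and 0.824 to 0.856 in the others. Across all probe sets tested, clone 11 was closest to the original cells (r = 0.978) and farthest from clone 9 (r = 0.962), as a description over probe sets that share 1 array per line. Clone 9 was also the farthest line from each of clones 3, 10 and the original cells, and values without it are given where it moved a result.

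Aqp2 (chr15:99579056-99584545, GRCm38.p6) had its highest signal in clone 11, at 6578. Clone 9 followed with 4683 and the original cells with 3822, and clones 3 and 10 read 1698 and 1066. The other lines spread widely below clone 11, and clone 2 read 159. The difference between clone 11 and the mean of the 4 other lines was 1.45 ± 0.69 (SE) on the scale log2(signal + 19.1), used for every difference below. It did not pass the test (limma adjusted p = 0.998), with 1 array against 4, and the distance to the nearest line, clone 9, was 0.49. Without clone 9 the difference was 1.78 (limma adjusted p = 0.412).

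Over 22518 probe sets above the median signal, none was called higher in clone 11 (0%) and 1 was called lower (0.00444%), at a limma adjusted p under 0.05. Before adjustment, 1036 probe sets (4.6%) had a p under 0.05. The test took its spread from the 4 other lines, with 3 residual degrees of freedom, and assumed that clone 11 varies like them. Its p-values therefore measure the spread between single arrays of different lines. A second description needed no such assumption. It counted genes, each read by its probe set of highest mean signal, whose clone 11 value lay outside all 4 other lines by at least 1 on the log2 scale, a doubling. Of 10326 genes, 11 lay that far above (0.107%) and 28 that far below (0.271%). By any amount, 2180 genes (21.1%) lay above all 4 lines and 1938 (18.8%) below them. These are the background shares for every gene group that follows.

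Oat, which encodes the mitochondrial ornithine aminotransferase that links ornithine to glutamate and proline, was the one transcript called by the test. Its signal was 1.58 in clone 11, against 659, 1547, 778 and 854 in the others, in the order clone 3, clone 9, clone 10, original cells. All 4 lay far above clone 11, as did clone 2 at 541. The fitted difference was -5.48 ± 0.405 (SE; limma adjusted p = 0.0188), with a gap of -5.03 to the nearest line. Since the signal of clone 11 lies far below the offset of 19.1, the size is set in part by that offset, and it was -9.17 at an offset of 0 and -4.57 at the doubled offset. The gene (chr7:132557475-132576398, GRCm38.p6) was read by 1 probe set past the filter. Its 4 nearest measured neighbours on chromosome 7 differed by between -0.43 and 0.14. The call was lost at the doubled offset (limma adjusted p = 0.0572), with no filter (0.121), without the variance trend (0.106), without clone 10 (0.064) and without the original cells (0.368). Without clone 9 the limma adjusted p was 0.000173.

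After Oat, the genes farthest below the other lines were Fabp5, Ica1 and Asrgl1, and Mgst1 was also among the 12 farthest. Fabp5, an intracellular fatty acid carrier, read 30.3 in clone 11 and 2298, 468, 1167 and 1042 in clone 3, clone 9, clone 10 and the original cells. The gap to the lowest of them was -3.30, and the second Fabp5 probe set lay below all 4 lines as well. The difference of -4.46 did not pass the test (limma adjusted p = 0.321), and it passed without clone 9 (-4.85, limma adjusted p = 0.00878). Mgst1, a membrane glutathione transferase, read 511 in clone 11 against 2318, 1690, 3196 and 2148. It followed the same course, with -2.12 and a limma adjusted p of 0.309 over all lines and 0.02 without clone 9. Ica1, a vesicle trafficking protein, read 18.2 in clone 11 and 278, 459, 352 and 262 in the others in the same order. Its difference was -3.23 (limma adjusted p = 0.117, and 0.02 without clone 9). Asrgl1, an asparaginase, read 5.06 in clone 11 against 243, 364, 140 and 265. Its difference of -3.43 had a limma adjusted p of 0.254, and 0.0441 without clone 9. By these probe sets the groups did not overlap for Fabp5, Mgst1, Ica1 and Asrgl1, as the rule that picked the genes required. The second Ica1 and the second Asrgl1 probe sets also lay below all 4 lines, but another Asrgl1 probe set read 69.8 in clone 11 and 60.4 in clone 10 and so overlapped.

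Leaving out clone 9 raised the number of probe sets called lower from 1 to 19, and the number called higher stayed at 0. Besides Oat, the genes called then were Fabp5 and Col4a6 with 2 probe sets each, Rnf227 with 2, and Mgst1, Ica1, Scarb2, Unc5b, Pof1b, Dock11, Tmem30b, Asrgl1, Galnt12, Muc1 and Rabepk, with 1 probe set unnamed. These names were chosen after their values were seen. Col4a6, a basement membrane collagen chain, had a difference of -3.05 for the probe set with the larger gap. Unc5b, a netrin receptor, stood at -3.68, although clone 9 itself read 11.6, below the 18.0 of clone 11. With clone 9, Col4a6, Unc5b, Rnf227, Pof1b, Dock11, Tmem30b, Muc1 and Rabepk were not among the 28 genes at least a doubling below all 4 lines. The fit without clone 9 had 3 other lines and 2 residual degrees of freedom.

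The other genes among the 12 farthest below had other-line signals of at most 502. Tmem218, a ciliary membrane protein, read 3.15 in clone 11 and 96.5 to 227 in the others. Sgsm1, a modulator of small G proteins, read 4.76 against 96.8 to 236. Cela3b, of the elastase family, read 10.5 against 78.1 to 151. Plxnb3, a semaphorin receptor, read 15.9 against 85.8 to 155, and Il23a, a cytokine subunit, 18.3 against 91.8 to 165. Abca5, a lipid transporter, read 21.6 against 96.7 to 502. Cplx2, a regulator of vesicle fusion on chromosome 13, read 25.7 against 119 to 135. None of these differences, from -1.68 for Cplx2 to -2.89 for Sgsm1, passed the test. At higher signal, clusterin (Clu), a secreted chaperone named after its value was seen, read 2577 in clone 11 and 5419 to 7540 in the others.

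The 11 genes at least a doubling above the other lines were led, by their distance from the nearest line, by Rhcg, Smoc1, AI467606 and Nectin3. Rhcg, an ammonia transporter of the collecting duct, read 1526 in clone 11, with clones 3 and 9 at 25.9 and 8.42, clone 10 at 202 and the original cells at 271. Clone 11 was far above all lines, and those lines differed widely among themselves. The difference was 4.03 ± 1.18 (SE) and did not pass the test (limma adjusted p = 0.995), nor did it without clone 9 (3.44, limma adjusted p = 0.329). Smoc1, a secreted calcium-binding matrix protein, read 1201 in clone 11 and 23.8, 14.7, 200 and 234 in the others. Nectin3, an adhesion molecule of cell junctions, read 1326 in clone 11 and 33, 3.86, 400 and 430 in the others. Rhcg, Smoc1 and Nectin3 shared an order of lines, with clones 3 and 9 low and clone 10 and the original cells between them and clone 11.

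Rcn1, a calcium-binding protein of the endoplasmic reticulum, read 526 in clone 11, 168 in the original cells and 8.24 to 18.5 in clones 3, 9 and 10. Grb10, an imprinted adaptor of the insulin receptor, read 351 against 83.6, 55.3, 51.7 and 109. The gene AI467606, of unknown function here, read 627 against 61.3, 32.9, 31.5 and 159. Slc22a29, an organic anion transporter, read 762 in clone 11, with clone 9 at 310, the original cells at 249 and clones 3 and 10 at 4.43 and 1.72. Its probe set is of a kind that can match related genes, so the value is uncertain. Lypd6, a membrane-anchored Wnt cofactor, read 225 against 2.94 to 94.7, and Limch1, an actomyosin regulator, read 652 against 52.4 to 295.

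Tns1, or tensin, which links integrins to actin, and Nrp1 had the smallest standard errors among the 12 genes farthest above. Tns1 read 2980 in clone 11 and 976, 1402, 1337 and 1301 in the others, a difference of 1.25 ± 0.219 (SE; limma adjusted p = 0.508). Nrp1, a coreceptor for semaphorins and vascular growth factors, read 2943 against 1292, 1494, 1199 and 1489, with a gap of 0.97 (SE of the difference 0.182; limma adjusted p = 0.508). Other probe sets differed less, by 0.55 and 0.57 for Tns1 and by 0.69, 0.57 and 0.092 for Nrp1, the last inside the range of the other lines. Of the 11 genes, 5 had a mean over the other lines below the filter and were measured only through clone 11. These were AI467606, Rcn1, Grb10, Ifi27 and Lypd6. Clone 2 lay within the range of the 5 AQP2-expressing arrays for 15 of the 24 leading genes.

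**Figure D1:**
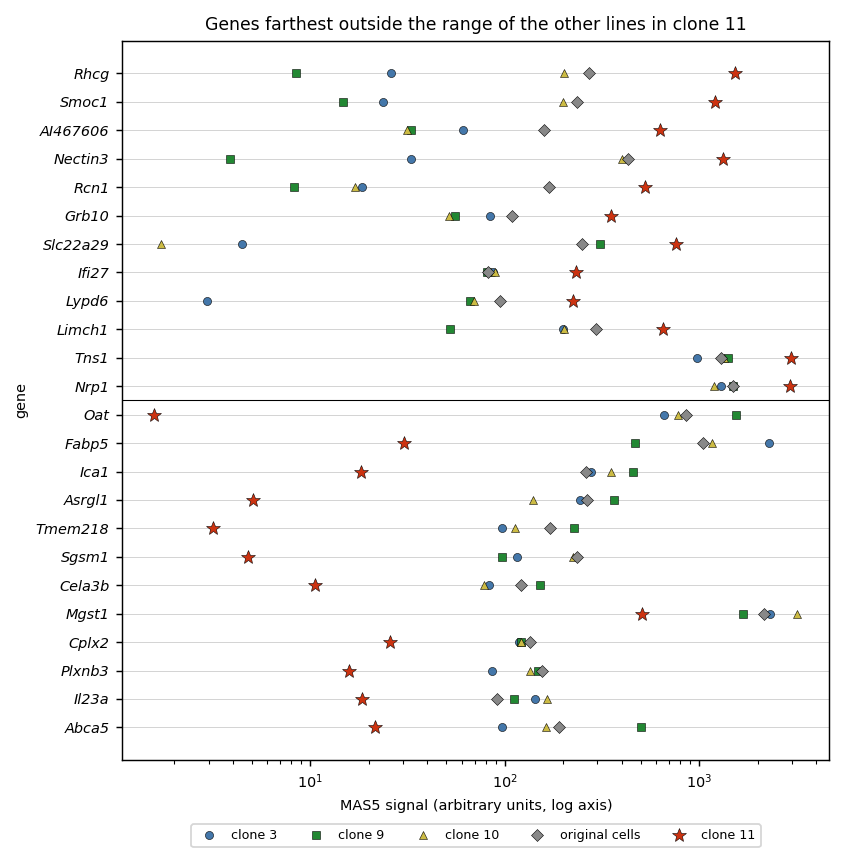
MAS5 signal (log axis, arbitrary units) of the 12 genes farthest above and the 12 farthest below the other lines, 1 point per line and no error bar, since each line is 1 array. By the rule that picked the genes, clone 11 (red star) lies outside all 4 other lines in every row. Oat read 1.58 against 659 to 1547 and Rhcg 1526 against 8.42 to 271.

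The genes of the distal part of chromosome 13 were lower in clone 11 almost throughout. The median shift of all 381 genes of chromosome 13, relative to the median of all genes, was -0.13 in clone 11 and between -0.0034 and 0.0039 in the other lines. Ordered along the chromosome, the genes divided at 1 point. The 211 genes from Gdi2 to Ercc6l2 had a median shift of 0.044. The 170 genes from Slc35d2 to Zfp131 (chr13:64096308-119791477, GRCm38.p6) had a median shift of -0.44, that is 73.5% of the level in the other lines. For the same segment, clones 3, 9 and 10 stood at 0.033, -0.0088 and 0.016, the original cells at -0.047 and clone 2 at 0.19. The boundary was placed where these values divide best, so the size of the step is a description and was given no test.

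In the distal segment 159 of 170 genes (93.5%) had a negative shift and 143 (84.1%) lay below all 4 other lines, against 18.8% of all genes. By contrast 27 of the 211 proximal genes (12.8%) lay below all 4. The quartiles of the distal genes were -0.57 and -0.28. In successive 10 Mb stretches from 60 Mb on, the median was -0.41, -0.53, -0.42, -0.42, -0.40 and -0.36. In the stretches before 60 Mb it was between -0.019 and 0.13. At the boundary, Ercc6l2 read 952 in clone 11 and 828 to 918 in the other lines, whereas the next gene, Slc35d2, read 195 in clone 11 and 247 to 293 in the others. These genes flank the boundary, which was itself placed by the values of clone 11. Their contrast and the shares on either side therefore follow in part from that choice.

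The distal genes differ in function and level, and the abundant ones were lower as well. Hmgcs1, an early enzyme of cholesterol synthesis, read 9662 in clone 11 and 11623, 11547, 11905 and 11625 in clone 3, clone 9, clone 10 and the original cells. Plk2, a stress-induced kinase, read 3786 against 5123, 6453, 5147 and 5135. Gpbp1, a transcription factor, read 3738 against 4892 to 5476, and Ctsl, the lysosomal protease cathepsin L, 3189 against 4338 to 5553. Sdha, the catalytic subunit of succinate dehydrogenase, read 3993 against 4534 to 4828. Uqcrb, a subunit of respiratory complex III, read 20077 against 20827 to 23385, the smallest step among the 10 most abundant distal genes. The groups did not overlap for any of the 10. Among list members, the phosphodiesterase Pde4d stood at -0.69, the transcription factor Irx2 at -0.66, the tight junction gene Marveld2 at -0.49, the potassium-chloride cotransporter Slc12a7 at -0.42 and occludin (Ocln) at -0.24.

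Farther from the other lines were Erap1, which trims peptides for class I antigen presentation, with 52.8 in clone 11 against 239, 156, 203 and 180, and Rfesd, with 106 against 252 to 275. Zfp58, a zinc finger gene, read 178 against 338 to 414. No distal gene passed the test by itself. Exceptions existed, with 2 distal genes above all 4 other lines. Leaving out any 1 line kept the segment between -0.46 and -0.44. DNA was not measured, so the number of copies of the segment was not tested.

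**Figure D2:**
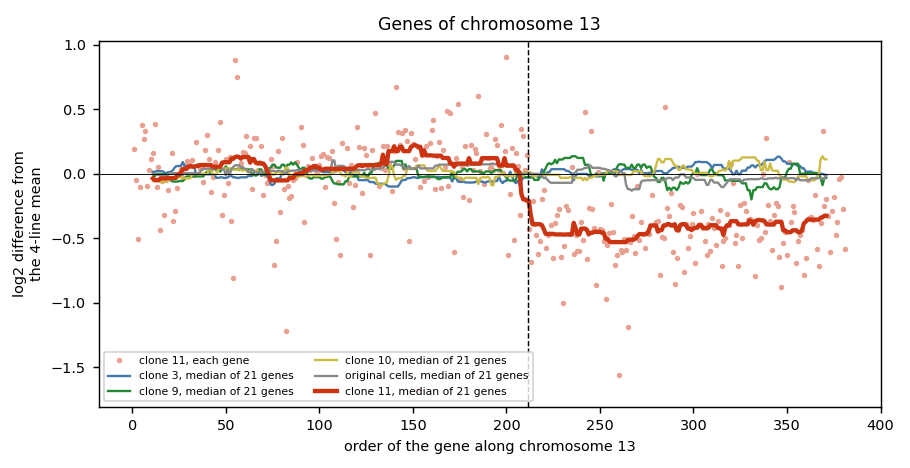
Genes of chromosome 13 past the signal filter in their order along the chromosome (x axis), with the log2 difference from the mean of the 4 other lines (y axis). Points are clone 11's genes, lines are medians over 21 neighbouring genes for each line, and the dashed line marks the boundary. Clone 11 steps from a median of 0.044 to -0.44 there, and the other lines stay near 0.

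No other whole chromosome had a median as large as that of the distal segment, and chromosome 18 was the one other chromosome at least 0.1 outside 0 and outside the other lines. Chromosome X met that rule without clone 3 (-0.12) and without clone 10 (-0.10). Chromosome 18 had a median of -0.18 in clone 11. Clones 3, 10 and 9 stood at -0.15, -0.085 and 0.26 and the original cells at -0.037. Clone 11 was the lowest by a small margin, and without clone 9 its median was -0.088, short of the 0.1 set for a shift. Of the genes there, 38.7% lay below all 4 other lines. They included Myo5b, a motor of recycling vesicles that carry AQP2, with 414 in clone 11 against 672 to 815. Bin1, a membrane-bending protein, read 234 against 353 to 619. Cdc23, a subunit of the anaphase-promoting complex, read 407 against 582 to 724, and Ccdc68 197 against 284 to 420. Chromosomes 9 and 17 were high in both clone 11 and clone 9. Chromosome 9 stood at 0.17 in clone 11 and 0.22 in clone 9, and chromosome 17 at 0.12 and 0.14. Of their genes, 34.1% and 35.5% lay above all 4 lines, and without clone 9 their medians of 0.24 and 0.17 lay above the 3 remaining lines.

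**Figure D3:**
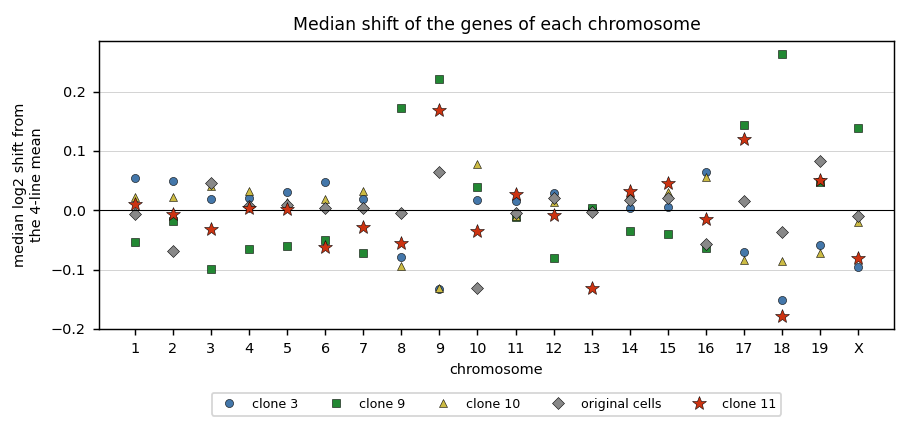
Median log2 shift of the genes of each chromosome (y axis) from the mean of the 4 other lines, 1 point per line, for chromosomes with at least 30 genes (x axis). Chromosome 13 holds the other lines within 0.0039 of 0 and clone 11 at -0.13, while on chromosomes 8, 9, 17, 18 and X clone 9 is the highest line.

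Interferon-stimulated genes, which cells switch on through the STAT and IRF factors in antiviral defence, were lower in clone 11 than in the other lines for the most part. Of 32 such genes past the filter, none was called by the test, 17 lay below all 4 other lines and 3 above, against 18.8% and 21.1% of all genes. The median difference was -0.46, against 0.017 over all genes. The other lines' own medians ran from -0.30 in clone 9 to 0.24 in clone 3. A line's own median is taken against a mean that includes it, so this range is somewhat narrow by construction. Without clone 9 the median was -0.61, and 22 genes lay below, where 27.1% of all genes lay below the remaining lines.

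Usp18, the protease that removes the ubiquitin-like ISG tag and restrains interferon signalling, read 27.4 in clone 11, with clones 3, 9 and 10 at 281, 60.7 and 154 and the original cells at 158. Rsad2, the antiviral enzyme viperin, read 46.8 against 607, 82.7, 180 and 286 in the same order. Clone 11 was lowest and clone 9 the next lowest for both. Bst2, or tetherin, which holds budding virus at the membrane, read 220 against 462, 381, 362 and 353. Oasl2, of the oligoadenylate synthetase family, read 69.8 against 347, 118, 134 and 132. Ifi35 read 1213 against 2062, 1733, 1692 and 1557. The other lines had no overlap with clone 11 in these 5 genes, which were chosen after their values were seen.

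The list was not uniform. Ifit2, an antiviral RNA-binding protein, read 1784 in clone 11 and 1191 to 1350 in the others, and its relative Ifit3 read 554 against 156 to 480. Ifi27, an interferon-induced mitochondrial protein, read 233 in clone 11 against 86.9, 81.6, 89.5 and 82.4, while clone 2 read 3948. It was the sole member of the list at least a doubling outside the range of the other lines. Its mean over the other lines, 85.1, was below the filter of 85.9, so it entered the list only through clone 11, where it was high. With clone 2 counted among the other lines, the median of the list lay inside their range.

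The promoters of 4 of these genes are shown because many members of the list lay below the other lines while Ifit3 did not. Bst2, Rsad2 and Oas1a had the largest gaps below the other lines among members whose promoter held the motif, and Ifit3 lay above. Each runs from 250 bases before to 50 after the transcription start, from RefSeq on GRCm38.p6, and capitals mark 2 copies of GAAA with any 2 bases between them, or on the opposite strand 2 copies of TTTC spaced likewise, a core of the interferon-stimulated response element. Matches may overlap.
Bst2, chr8:71537423-71537722, minus strand: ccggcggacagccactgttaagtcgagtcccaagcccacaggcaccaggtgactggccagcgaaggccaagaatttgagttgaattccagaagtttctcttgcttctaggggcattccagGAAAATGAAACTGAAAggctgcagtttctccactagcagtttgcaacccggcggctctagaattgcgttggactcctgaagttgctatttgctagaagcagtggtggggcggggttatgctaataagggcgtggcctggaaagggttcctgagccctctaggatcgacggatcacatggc
Rsad2, chr12:26456403-26456702, minus strand: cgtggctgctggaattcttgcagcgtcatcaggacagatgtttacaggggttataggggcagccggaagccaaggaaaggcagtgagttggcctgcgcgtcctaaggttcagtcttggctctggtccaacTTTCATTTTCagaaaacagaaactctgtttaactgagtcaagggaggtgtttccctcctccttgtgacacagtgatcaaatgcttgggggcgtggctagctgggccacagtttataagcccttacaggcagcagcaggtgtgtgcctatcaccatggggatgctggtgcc
Oas1a, chr5:120907476-120907775, minus strand: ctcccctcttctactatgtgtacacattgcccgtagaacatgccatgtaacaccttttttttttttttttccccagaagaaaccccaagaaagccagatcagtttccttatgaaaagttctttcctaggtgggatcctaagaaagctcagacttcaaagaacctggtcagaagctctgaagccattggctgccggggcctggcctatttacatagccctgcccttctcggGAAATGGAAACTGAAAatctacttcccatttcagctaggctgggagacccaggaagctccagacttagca
Ifit3, chr19:34583279-34583578, plus strand: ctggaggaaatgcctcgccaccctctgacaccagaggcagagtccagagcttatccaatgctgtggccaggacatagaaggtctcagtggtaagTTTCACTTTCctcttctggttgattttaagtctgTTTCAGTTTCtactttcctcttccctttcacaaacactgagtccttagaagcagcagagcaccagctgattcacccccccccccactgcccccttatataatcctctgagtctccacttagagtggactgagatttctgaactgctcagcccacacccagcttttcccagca
The motif was found in 13 of the 26 members with a promoter in the table (50%), against 1079 of 27025 genes (3.99%). It was in 7 of 14 members below all 4 other lines (50%) and in 6 of 12 inside or above them (50%). The share was the same in both, and Bst2, below the other lines, and Ifit3, above them, held 2 matches each.

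**Figure D4:**
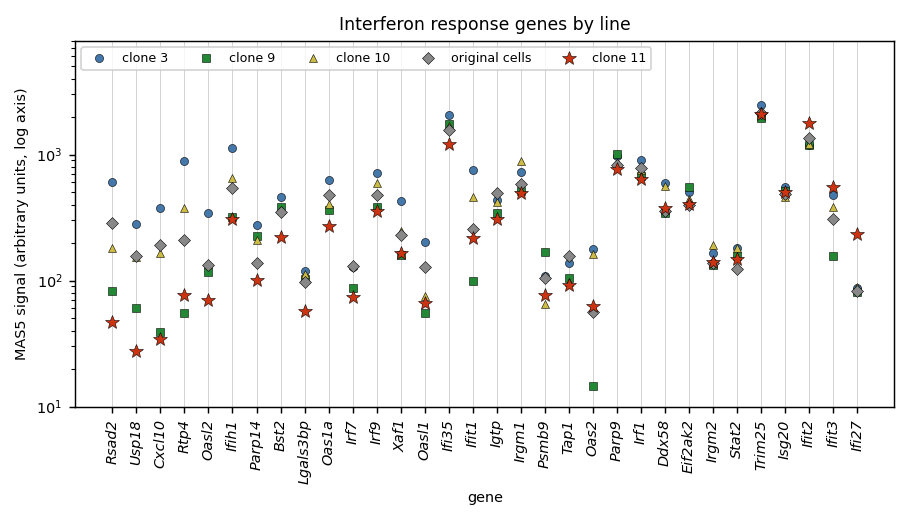
MAS5 signal (log axis, arbitrary units) of the 32 interferon response genes past the filter, ordered by the difference between clone 11 and the mean of the others, 1 point per line. Clone 11 (red star) is the lowest line for 17 genes, such as Usp18 at 27.4, and the highest for Ifit2, Ifit3 and Ifi27.

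Class I antigen presentation, which loads peptides onto surface molecules, was lower in part. Of 15 genes, 6 lay below all 4 lines and 1 above, with a median of -0.27 and other lines from -0.11 to 0.082. Besides Erap1, the peptide transporter subunit Tap2 lay more than a doubling below, at 44.9 in clone 11 against 165, 233, 168 and 115. H2-D1, a class I heavy chain, was the one member above all 4 lines, at 0.55. Without clone 9 the median was -0.11. Over the 8 members past a filter at the 75th percentile the median was -0.046, inside the range of the other lines. Inflammatory and NF-kB target genes had 5 of 20 below and 2 above, with a median of -0.046, inside the other lines' range. Their most abundant members were the inhibitor Nfkbia, with 7664 in clone 11 and 6428 to 8406 in the others, and Tnfaip2, at -0.17.

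Genes of oxidative phosphorylation, mostly nuclear-encoded subunits of the respiratory chain and ATP synthase, were slightly higher in clone 11 as a group. Of 54 measured, 26 lay above all 4 lines and 3 below, and the median difference was 0.18, against -0.10 to 0.096 in the other lines. Without clone 9 the median was 0.11, against -0.066 to 0.066, with 27 above and 7 below. In that setting 29.4% of all genes lay above the remaining lines and 27.1% below. None was called by the test. Cox6a1, a subunit of cytochrome oxidase, read 23137 in clone 11 and 18318, 18292, 17787 and 20279 in the others, and clone 11 did not overlap them. Sdhd, which anchors succinate dehydrogenase in the membrane, had the largest gap above, 0.40 with a difference of 0.57. Differences over the list ran from -0.38 to 1.04. The 3 members below were Ndufs4, Sdha and Uqcrb, all of the distal chromosome 13 segment. Without the genes of that segment, 26 of 50 lay above and 0 below, with a median of 0.20. With all genes divided into 4 classes by signal, the brightest class had a median difference of 0.043 in clone 11 and the dimmest -0.017, so abundant genes as a whole stood slightly higher. The part of this in the group's median was not tested.

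Ribosomal protein genes had a pattern that followed the scaling. As deposited, 20 of 36 lay above all 4 lines and 3 below, with a median of 0.095. After quantile normalization 3 lay above and 5 below, with a median of 0.012, and after cyclic loess 5 above and 6 below, with 0.037. Rps29 read 40576 in clone 11 against 38142 to 39569, and its difference of 0.064 became -0.079 after quantile normalization and -0.030 after cyclic loess. Rpl41 read 40374 against 34717 to 40243. Oxidative phosphorylation kept 24 and 23 members above under the same scalings.

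Homeobox (HOX) genes, which set position along the body axis and remain expressed in adult kidney, leaned higher. Of 17, 9 lay above all 4 lines and none below, with a median of 0.27, against -0.23 in clone 9 to 0.20 in clone 10. Without clone 9 the median was 0.21, and with no filter, over 33 genes, it was 0.16. The HOXB cluster held most of these, with 6 of 7 above and a median of 0.44, against 2 of 6 in HOXA and 1 of 4 in HOXD. Hoxb4 had a gap of 0.30 and Hoxb2 of 0.22. Hoxd9 read 4500 in clone 11 and 3007, 2998, 3953 and 4004 in the others, and Hoxd8 read 4766 against 3720 to 4965, within their range. Retinoic acid receptors and enzymes had 4 of 8 above and 1 below, with a median of 0.21 and other lines from -0.031 to 0.040. The retinol dehydrogenase Rdh10 read 3179 against 1657 to 2834, and the receptor Rxrb read 2513 against 1789 to 2278.

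Of 17 ETS transcription factors, 5 lay below all 4 lines, 1 above and 11 inside, with a median of -0.086, against -0.046 to 0.054 in the other lines. With clone 2 among the other lines the median of -0.067 lay inside their range. Elk1, a target of growth factor kinases, read 36.6 in clone 11 against 146, 168, 116 and 109, and its other probe set did not lie below all 4 lines. Etv4, which acts in branching of the ureteric bud, read 93.3 against 344, 321, 225 and 220, and its relative Etv5 had a gap of -0.46. Neither Elk1 (limma adjusted p = 0.915) nor Etv4 (limma adjusted p = 0.897) passed the test. Other kidney transcription factors had 5 of 31 above and 4 below, with a median of 0.029. Sox4 read 18438 against 13732 to 15989, and Zfp36l1, an RNA-binding protein kept in that list, 8389 against 9022 to 9491.

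Genes of the vasopressin pathway itself showed no common direction. Of 34 in vasopressin and cyclic AMP signalling, 7 lay above and 7 below all 4 lines, with a median of 0.014. The vasopressin receptor Avpr2 read 1746 in clone 11 and 1417 to 1672 in the others. Among adenylyl cyclases, which make cyclic AMP, Adcy6 lay above at a gap of 0.083 while Adcy9 and Adcy5 lay below, at gaps of -0.93 and -0.44. The transcription factor Creb3l2 had the largest gap above, 0.40. The stimulatory G protein subunit Gnas read 15106 against 13750 to 17232, and the inhibitory Gnai3 read 6537 against 6235 to 6753, both inside the range. Of 42 genes of AQP2 vesicle trafficking, 10 lay above and 9 below, with a median of 0.022, against -0.043 to 0.0083 in the other lines. Myo5b and the Rab partner Rab11fip5 were the farthest below, at gaps of -0.67 and -0.33, and the scaffold Sipa1l1 the farthest above, at 0.21. Hspa8 read 33573 against 26266 to 33959, and the raft protein Mal 22500 against 18643 to 24905.

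Principal cell markers had 6 of 18 above and 1 below, with a median of 0.10 and other lines from -0.026 to 0.052. After cyclic loess the median was 0.056, inside their range. Their summed signal was 131432 in clone 11 and 114208 to 117306 in the others. Much of that sum came from Krt18, with 33642 in clone 11 and 27518 to 29191 in the others, and from Krt8, with 24662 against 19974 to 22202, both keratins of simple epithelia. Tmem45b, an aldosterone-linked membrane protein, read 2020 in clone 11, close to the 1937 of the original cells and above the 445 of clone 3. Differences of the principal cell markers ran from -0.99 to 1.45, with 7 negative and 11 positive. Scnn1b read 112 in clone 11 and 96.6 to 507 in the others, within their range. Kcnj10 read 111 in clone 11 and 115 to 188 in the others, below all of them. Genes of the aldosterone and glucocorticoid response, the steroids that set sodium uptake, had 6 of 23 above and 1 below and a median of 0.11, which ran from 0.049 without clone 10 to 0.18 without the original cells. Differences in the aldosterone and glucocorticoid list ran from -0.99 to 0.94, with 11 negative and 12 positive. The sodium pump subunit Atp1b1 read 16298 against 14550 to 20406 and the kinase Wnk1 8771 against 6864 to 8425. Osmotic response genes had 5 of 12 below and 1 above, with a median of -0.14, against -0.031 to 0.064 in the other lines. The chaperone Hspa1b read 12317 against 13016 to 14493 and the amino acid transporter Slc38a2 10556 against 10573 to 12191.

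Markers of other cell types mostly fell below the filter, apart from keratins and desmosome genes. Most sums lay inside the range of the other lines. The sum of endothelial and leukocyte genes lay below it, and that of keratins and desmosome genes above it. A few genes carried much of several sums in clone 11. These were Car2 at 3553 for the intercalated cell, Wnk1 at 8771 for the loop of Henle, and Fn1 and Ccn2 for fibroblasts. Intercalated cell markers had 8 of 18 past the filter. Foxi1, Slc4a1 and Slc26a4, which were not past it, read 2.83, 19.3 and 31.8 in clone 11. Of those past it, Atp6v1b1 read 656 in clone 11 against 413 to 687, and Aqp6 read 222 against 250 to 328. The summed signal of the intercalated cell markers was 6916 in clone 11 and 4036 to 7196 in the others, inside their range despite the high Rhcg. Proximal tubule markers left 1 gene, the endocytic receptor Lrp2, with 834 in clone 11 and 809 to 1067 in the others, and their sum was 1430 against 1268 to 1698. Loop of Henle and distal tubule markers had 1 of 5 above and 2 below with a median of -0.16 and a sum of 12992 against 12561 to 13215, and the channel Trpm7 read 2040 against 2023 to 2931. Fibroblast markers summed to 16010 against 13075 to 16995, with 2 of 7 above and 1 below. Fibronectin (Fn1) read 9454 against 6738 to 9014 and Ccn2 3779 against 2901 to 7376. Endothelial and leukocyte markers summed to 4021 against 4334 to 5891, with 3 past the filter. Cd14, a receptor for bacterial lipopolysaccharide, read 1529 against 1899 to 2564, and Csf1r 1841 against 1641 to 2564. Keratins and desmosome genes had 5 of 17 above and 4 below, with a sum of 108016 against 98013 to 103047. In cultures, fewer cells of a type and less RNA per cell cannot be told apart.

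Targets of p53, the DNA damage factor, had 10 of 24 below all 4 lines and 1 above, with a median of -0.21 and other lines from -0.096 to 0.20, and without clone 10 it was -0.12. Plk2, already described on chromosome 13, and the p53 ligase Mdm2, at a gap of -0.23, led them, and Cdkn1a read 4725 against 4569 to 6148. Cell cycle genes had 8 of 50 below and 4 above with a median of 0.030. Pcna read 23718 against 20417 to 26547 and Mcm7 18991 against 16386 to 18296. Immediate early genes had 6 of 30 below and none above, with a median of -0.099. Jund read 8532 against 10297 to 11668, and Egr1 12495 against 10105 to 14690. Unfolded protein response genes had 8 of 30 below and 3 above with a median of -0.052, against -0.047 to 0.069 in the other lines. Trib3 had a gap of -0.84, Hspa5 read 13487 against 11206 to 13064 and Canx 11442 against 11066 to 12679.

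Metabolic lists other than respiration stood near the background. Hypoxia and glycolysis genes had 3 of 32 above and 5 below, with Tpi1 at 25533 against 21527 to 24630 and Aldoa at 22958 against 20212 to 23116. Cholesterol synthesis genes had 7 of 21 above and 2 below, with Hmgcs1 lower and Fdps at 8229 against 7778 to 9217. Fatty acid and lipid genes had 9 of 29 above and 5 below, among them Fabp5. Genes of the NRF2 and glutathione response had 9 of 37 above and 6 below, with Tkt at 17429 against 15605 to 16727 and metallothionein Mt1 at 17006 against 7031 to 15649.

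Apart from the Wnt list, the signalling lists here had medians inside the range of the other lines. Notch genes had 5 of 19 above and 4 below, with Notch2 at 3841 and Adam10 at 4058. Wnt genes had 8 of 25 above and 3 below with a median of 0.097, against -0.13 to 0.023 in the other lines, or 0.0086 and inside their range over the mean of a gene's probe sets, with beta-catenin (Ctnnb1) at 18018 against 15103 to 16744 and the receptor Lgr4 at 6441 against 3987 to 6432. TGF-beta and BMP genes had 7 of 30 above and 5 below, with Smad4 at 5017 and Tgfbr2 at 5766. Growth factor receptors and ligands had 6 of 29 above and 8 below, with Igfbp7 at 8434 and Erbb3 at 5354. Prostaglandin, endothelin and purine genes had 2 of 15 above and 4 below, with Pla2g4a at 1499 and Ptgs2 at 1215. Of those named here without a range, Adam10 was above all 4 lines and the others lay within their range.

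Structural and transport lists showed single genes more than shared shifts. Junction and polarity genes had 8 of 29 above and 6 below, with claudins on both sides, Cldn9 at a gap of 0.82, Cldn4 at 0.38 and Cldn2 at -0.16. Cdh16 read 15772 against 14868 to 18556 and E-cadherin (Cdh1) 13226 against 13901 to 16124. Basement membrane and integrin genes had 5 of 35 above and 4 below, with Npnt at 10207 against 9723 to 11479. Potassium, chloride and sodium transport genes had 7 of 31 above and 9 below, with Slc9a3r1 at 7010 against 5780 to 6667. The median of that list was -0.035, against -0.033 to 0.054 in the other lines. Proton pump genes had 3 of 17 above and 2 below, with Atp6ap2 at 5728 against 7108 to 9013 and Atp6v1g1 at 5302 against 4659 to 6180. Polycystin and cilium genes had 6 of 31 above and 6 below, with Bicc1 at 11812 and Arl3 at 4642, both within the range. Imprinted genes had 1 of 12 above, Grb10, and 1 below. Grb10 passed the filter only through clone 11, where it was high, so its place above follows in part from the filter. Xist, the transcript of the silenced X chromosome, read 75.7 in clone 11, 6936 in the original cells and 52.4 to 88.9 in clones 3, 9 and 10.

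**Figure D5:**
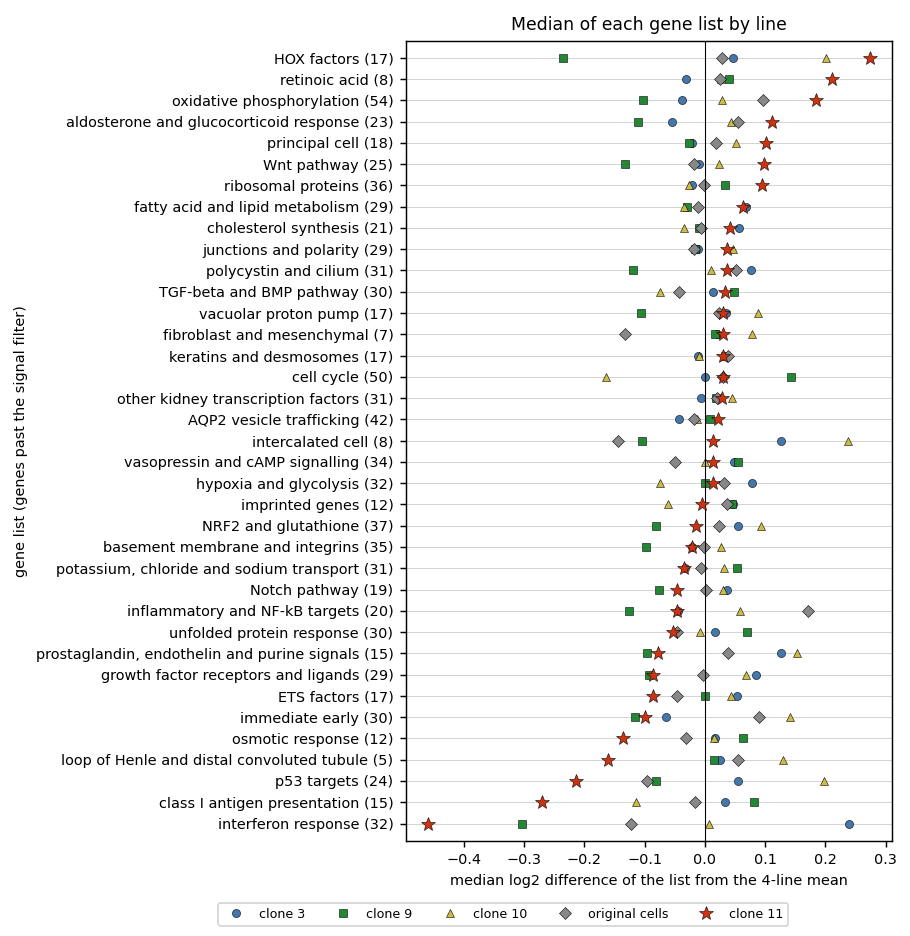
Median log2 difference from the mean of the 4 other lines (x axis) for each of 37 gene lists with at least 5 genes past the filter (y axis, number of genes in brackets), 1 point per line. Clone 11 (red star) is lowest for interferon response (-0.46) and class I antigen presentation (-0.27) and highest for HOX factors (0.27), while most other lists place it inside the range of the other lines.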

How the data were processed

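RNA of 6 mpkCCD lines, 1 array each, was measured on Affymetrix mouse arrays, per the labels' protocols. The deposited intensities are linear MAS5 signals. The submitters' processing notes name Affymetrix Expression Console 1.1 as the software. After trimming 2% of probe sets at either end, the deposited intensities of every array average 500.0. The array scaling assumes that overall RNA signal is equal between lines.

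Of 45037 probe sets other than controls, 34945 had 1 gene symbol in the platform annotation, 932 had several and 9160 none, and 34741 were matched to a current GRCm38.p6 symbol. Probe sets with several or no gene were tested but not named. Signals were log2-transformed after adding 19.1, the 25th percentile of the 5 arrays, and probe sets with a mean above 85.9, their median, were kept, so differences of low signals are understated. limma 3.58.1 in R 4.3.3 (lmFit, eBayes with trend) compared clone 11 with the 4 other lines, two-sided, with Benjamini-Hochberg adjustment over all probe sets tested. The fit was tested on simulated data. The number of arrays limits the precision.

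A gene was read by its probe set of highest mean signal. Named genes were Aqp2, the 12 farthest outside the other lines in each direction, up to 4 members a list at least a doubling outside or else its 2 of highest signal, and up to 4 genes of each shifted chromosome. A chromosome counted as shifted at a median of at least 0.1 in size outside the other lines' range. Members and the 40 lists were chosen with earlier results of these data known. Alternatives covered the offset, filter, scaling, moderation, probe set rule, clone 2 and each line left out.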

Additional observations from a re-analysis of the deposited data

Results flagged for a closer look

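Of 156 results in the 4 other lines, those below had 1 line set apart from the rest by a gap whose share of the whole range passed Dixon's 95% critical value for 4 samples, which chance does in about 1 of 20 groups. Gap over range was 0.98 for Plk2, 0.966 for Myo5b, 0.857 for Mt1, 0.848 for Cdc23 and 0.865 for the chromosome 12 median, all with clone 9 apart. It was 0.905 for Tpi1, 0.883 for the junction and polarity list and 0.902 for the imprinted list, with clone 10 apart. For Rcn1 it was 0.835 and for Xist, alone in its list past the filter, 0.91, with the original cells apart. For Plk2, Myo5b and Cdc23 clone 9 was the highest line and clone 11 lay below all 4 lines, so the difference from the nearest line is smaller than that from the mean. Outside the comparison, Ifi27 read 3948 in clone 2, above the 233 of clone 11 and the 81.6 to 89.5 of the 4 other lines.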

How the results depend on the processing

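No paired analysis was possible because clone 11 has 1 array and the groups share fewer than 2 replicate numbers. No setting called a probe set higher in clone 11, and the direction of Oat and of Aqp2 held in all 16 settings. The number called lower, 1 as reported, was 4 at an offset of 0, 0 at the doubled offset, 0 with no filter, 0 without the variance trend, 2 with robust moderation and 0 to 19 when each other line was left out, with 19 without clone 9 and 0 without clone 10 or without the original cells. Genes at least a doubling above the other lines, 11 as reported, were 113 with no filter, 1 past a filter at the 75th percentile, 6 with the filter on the other lines alone and 14 to 19 when a line was left out, with 19 without clone 10. Those below, 28 as reported, were 96, 6 and, with a line left out, 34 to 61, the last without clone 9. Of chromosomes, 2 were shifted as reported, 3 without clone 3 or without clone 10, where X was added, 3 without clone 9, where chromosomes 9 and 17 took the place of 18, and with no filter 1, chromosome 18, and the distal chromosome 13 segment stood at -0.38. The segment was found in these values, and it, the 25-gene windows and the list values without it were added after the data were seen. With clone 2 among the other lines it stood at -0.49. Differences that changed direction ran, as reported, from -0.22 for Ccn2 to 0.13 for Pla2g4a, and the cause was not tested. They belonged to 16 of the 95 named genes and 2 of the 40 lists. By setting, these were Mal (-0.0083), Pcna (-0.029) and Rps29 (-0.079) after quantile normalization, Mal (-0.019), Pcna (-0.049) and Rps29 (-0.030) after cyclic loess, Gnas (0.024), Gnai3 (0.030), Atp1b1 (0.0085) and Erbb3 (0.011) after median centring, and Cdh16 (0.0031), Gnai3 (0.066), Atp1b1 (0.047), Nfkbia (-0.0062), Notch2 (0.053) and Npnt (0.21) with clone 2 added, where Lrp2 also reversed to a larger 0.37. The AQP2 trafficking list had -0.0089, -0.0093 and, over the mean of a gene's probe sets, -0.013. The ion transport list had 0.084 past the stricter filter and 0.047 with clone 2. Leaving out each line gave ranges across 0 for Ccn2 -0.42 to 0.030, Cdh16 -0.10 to 0.0055, Gnas -0.055 to 0.053, Gnai3 -0.025 to 0.014, Mal -0.012 to 0.13, Atp1b1 -0.086 to 0.077, Fdps -0.080 to 0.0017, Pcna -0.031 to 0.10, Smad4 -0.23 to 0.0050, Erbb3 -0.074 to 0.034 and Pla2g4a -0.044 to 0.28, and for the trafficking list -0.0044 to 0.042. Of 1483 values of 95 named genes, 1441 kept direction and side of the threshold. Of 639 values of list medians, 578 moved by less than the spread of the other lines, and of 300 chromosome medians, 284. For the chromosome 13 median, 12 of 15 values moved by more than that spread, which was 0.0032 there. They lay between -0.17 and -0.079. With 3 residual degrees of freedom and 1 array of clone 11, small differences of single genes could not be resolved, and low MAS5 signals are the least certain.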

Other observations

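Medians were taken over windows of 25 consecutive genes, in steps of 5 genes, a description added after the data were seen. A window counted where the clone 11 median was at least 0.2 in size and more than 0.1 beyond all 4 other lines. Of 1970 windows, 31 lay above and 38 below by that rule. Of the 38 windows below, 32 formed the chromosome 13 run from Ctla2b to Hmgcs1. Elsewhere the longest run was on chromosome 19, from Ap5b1 to Rcor2, where 30 of 55 genes lay above all 4 lines. Its median was 0.22 in clone 11. The original cells stood at 0.093, clone 9 at 0.082, clone 10 at -0.057, clone 3 at -0.081 and clone 2 at -0.20. On chromosome 11 the genes from Eme1 to Gm11517, a stretch that holds the HOXB cluster, had a median of 0.24, with 16 of 30 above all 4 lines, the HOXB genes included. On chromosome 17 the genes from Mapk8ip3 to Mrpl28 had a median of 0.26, with 20 of 35 above. On chromosome 9 the run from Bace1 to Poglut3 had a median of 0.26, with 17 of 35 above and 0 below.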
